A study of Mus musculus with 5 samples.

Results

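The Myc family and its Max network comprise 10 genes of the deposited table: the paralogues Myc, Mycn and Mycl, their shared partner Max, and the antagonists Mxd1, Mxi1, Mxd3, Mxd4, Mnt and Mga. They were taken by symbol from a table of 24594 genes, and all 10 were present. RNA was sequenced from mouse retinal cells in 3 libraries labelled Zfp292-OE, given a CAG-Zfp292 plasmid, and 2 control libraries, given a CAG-GFP plasmid. In both groups the plasmid was electroporated into the eyes of pups on postnatal day 0, retinas were taken 4 days later, and GFP-positive cells, called RPC in the labels, were sorted. CAG is a promoter active in most cell types, so the promoter itself did not limit either plasmid to a cell type. Which cell types took up the plasmids was not tested. The labels used here state no strain, and they do not say that replicates are different animals. The p-values therefore reflect only how far these libraries lay apart, and that spread may be technical.

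Myc proteins are basic helix-loop-helix leucine zipper transcription factors that bind the E-box DNA sequence only as a dimer with Max, and they activate genes of growth, metabolism and division. The Mxd proteins, Mnt and Mga compete for the same partner and the same E-boxes, and Mxd and Mnt dimers recruit SIN3 and histone deacetylases to repress. In the retina, Mycn is known for driving growth of progenitors, and several Mxd genes are known for rising as cells leave the cycle, whereas Mxd3 is known from cells in S phase.

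Within the network 3 Mxd antagonists differed between the groups, 1 upward and 2 downward, and no Myc paralogue passed the test. Mxd3 rose 4.60-fold in the libraries labelled Zfp292-OE (95% confidence interval 2.73 to 7.74), and Mxd4 and Mxd1 fell to 0.479 (0.348 to 0.660) and 0.534 (0.380 to 0.750) of the control level. Max had a fold of 0.688 and did not pass the test, and neither did Mnt, Mga, Mxi1, Mycn, Mycl or Myc. In limma with Benjamini-Hochberg adjustment over 16316 genes and a threshold of 0.05, 1 member was higher and 2 were lower, so that 3 of 10 passed. Over all genes tested 17.4% passed, 10% higher and 7.38% lower. An unadjusted p below 0.05 was found for 5 members and for 32.8% of all tested genes. The libraries of the 2 groups did not overlap for 6 of the 10 members, 1 higher and 5 lower, against 49.9% of all tested genes, 24.3% higher and 25.7% lower. The members' median log2 fold change was −0.29, against −0.058 over all genes tested.

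Reads assigned to genes numbered 114197740 to 135442444 in the libraries labelled Zfp292-OE and 103096224 and 137683716 in control. The lowest count behind any member was 425 reads, for Myc. Zfp292 itself had 14631, 13197 and 15534 normalised reads in the libraries labelled Zfp292-OE, against 13288 and 14756 in control (limma log2 fold change 0.043, SE 0.14, adjusted p = 0.87), so each direction below is that of the labels. Whether reads from the plasmid insert are counted under Zfp292 is not known, so this value does not check the labels. Of 8 rod markers all 8 fell, of 8 bipolar markers all 8 fell, and of 8 markers of cycling cells all 8 rose. In such bulk samples fewer cells of a type and less RNA per cell cannot be told apart. With 1 control library left out, limma's spread came from the 3 libraries labelled Zfp292-OE alone, and the lone control was assumed to vary like them. In either such fit limma called 1 gene, although 4390 genes without control library 1 and 3534 without control library 2 had an unadjusted p below 0.05. Calls lost in those fits are given below with their fold changes.

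**Figure D1:**
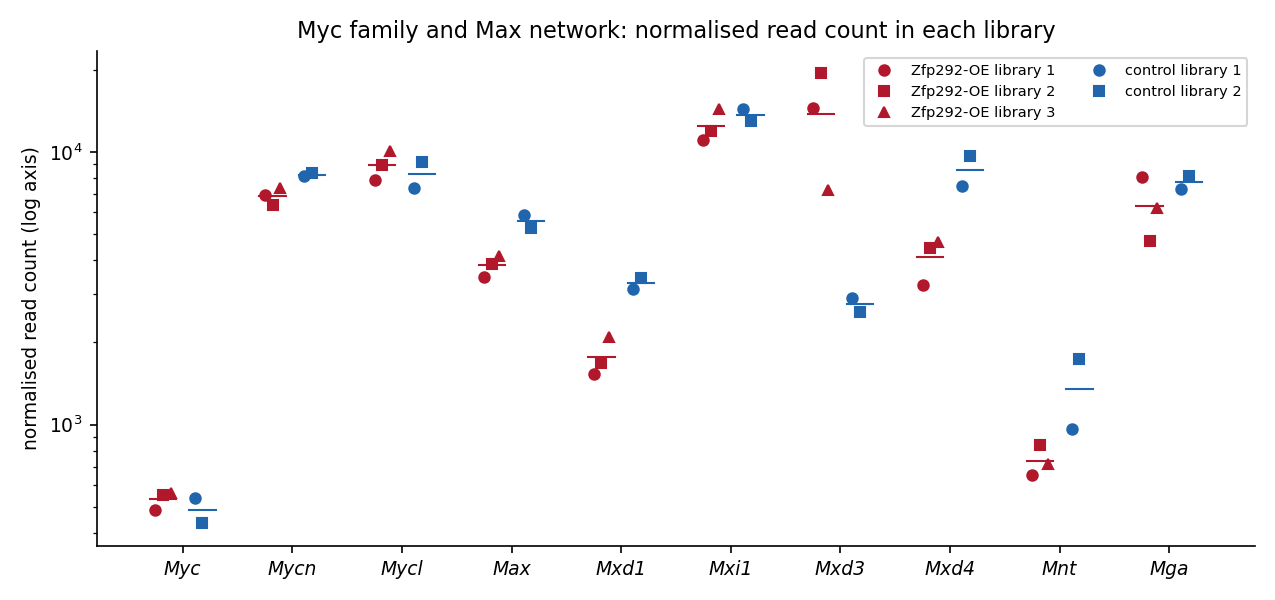
Normalised read count of each network member on a log axis, with 1 point per library (red, Zfp292-OE; blue, control) and a short line at each group mean. The 3 Zfp292-OE libraries lie above both controls for Mxd3 and below both for Mycn, Max, Mxd1, Mxd4 and Mnt.

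The Myc paralogues were led by Mycn and Mycl. Mycn (Entrez 18109, GRCm38 chromosome 12, 12936093 to 12941836), the paralogue of embryonic neural progenitors, had a normalised read count of 6955, 6371 and 7388 in the libraries labelled Zfp292-OE, against 8151 and 8361 in control. All 3 libraries labelled Zfp292-OE lay below both controls, with a log2 fold change of −0.26 (SE 0.15) that did not pass (limma adjusted p = 0.27). Mycl (Entrez 16918, chromosome 4, 122995588 to 123002490), the paralogue first found in lung cancer, had 7897, 8929 and 10060 in the libraries labelled Zfp292-OE, against 7366 and 9194 in control. Its groups overlapped, at a log2 fold change of 0.12 (SE 0.17, limma adjusted p = 0.68). Myc (Entrez 17869, chromosome 15, 61985341 to 61990361), the founding member and the one induced by growth factors in many tissues, had 485, 550 and 562 in the libraries labelled Zfp292-OE, against 537 and 435 in control. Its groups overlapped too (log2 fold change 0.14, SE 0.35, limma adjusted p = 0.82). The 95% intervals of the folds were 0.643 to 1.88 for Myc, 0.660 to 1.06 for Mycn and 0.831 to 1.41 for Mycl. Scaling all libraries to equal totals gave Myc and Mycl values of the opposite sign (−0.081 and −0.10).

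Max (Entrez 17187, chromosome 12, 76937269 to 76962323), without which neither Myc nor Mxd proteins bind DNA, had 3466, 3889 and 4150 in the libraries labelled Zfp292-OE, against 5870 and 5258 in control. The groups did not overlap. The log2 fold change of −0.54 (SE 0.17) was just outside the threshold in limma (adjusted p = 0.060) and in edgeR (adjusted p = 0.056). It passed in DESeq2 (adjusted p = 0.014), after quantile normalization (0.046) and with equal totals (0.019), in a range over 15 alternatives of 0.014 to 0.20.

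Mxd3 (Entrez 17121, chromosome 13, 55325170 to 55329900) was the single member that rose. It had 14482, 19407 and 7214 in the libraries labelled Zfp292-OE, against 2918 and 2595 in control. Library 3 labelled Zfp292-OE was the lowest of its group and still above both controls. Libraries labelled Zfp292-OE averaged 13701 ± 6134 (SD, n = 3), and control libraries averaged 2756 ± 228 (SD, n = 2), and limma gave a log2 fold change of 2.20 (SE 0.34, adjusted p = 0.0026). Mxd3 did not pass without control library 1 (log2 fold change 2.29, limma adjusted p = 0.089) or control library 2 (2.12, adjusted p = 0.16), and its log2 fold change lay between 1.89 and 2.61 over 15 alternatives. Mxd3 shares 103 bases with the neighbouring gene Prelid1, a mitochondrial lipid transfer protein, which rose as well. Prelid1 had 71285, 68955 and 66167 in the libraries labelled Zfp292-OE, against 43536 and 45261 in control. Whether counting used strand is not stated, so reads from that overlap cannot be told apart.

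Mxd4 (Entrez 17122, chromosome 5, 34176580 to 34187710), an antagonist of differentiating cells, had 3255, 4432 and 4658 in the libraries labelled Zfp292-OE, against 7473 and 9632 in control. Every library labelled Zfp292-OE lay below both controls, and Mxd4 fell by 1.06 on the log2 scale (SE 0.21, limma adjusted p = 0.0083). Mxd1 (Entrez 17119, chromosome 6, 86647044 to 86669234), the founding gene of the Mxd family, had 1538, 1681 and 2094 in the libraries labelled Zfp292-OE, against 3133 and 3453 in control. The groups were again apart, and Mxd1 fell by 0.91 (SE 0.22, limma adjusted p = 0.022). Without control library 1 or 2 the log2 fold change of Mxd4 was −1.24 or −0.88, with a limma adjusted p of 0.069 or 0.17. For Mxd1 it was −0.97 or −0.84, with an adjusted p of 0.10 or 0.18. Leaving out library 1 labelled Zfp292-OE gave Mxd1 −0.81 (adjusted p = 0.064), and leaving out library 2 gave −0.87, just above the threshold at 0.050. The long non-coding gene Gm38850 overlaps Mxd1 in position.

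Mxi1 (Entrez 17859, chromosome 19, 53310128 to 53373293), the antagonist with the highest control level per length, had 11029, 11967 and 14374 in the libraries labelled Zfp292-OE, against 14320 and 12920 in control. Its groups overlapped (log2 fold change −0.14, SE 0.16, limma adjusted p = 0.59). So the 4 genes of the Mxd family gave 1 rise, 2 falls and 1 value within the spread. The non-coding Gm30541 overlaps Mxi1 in position.

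**Figure D2:**
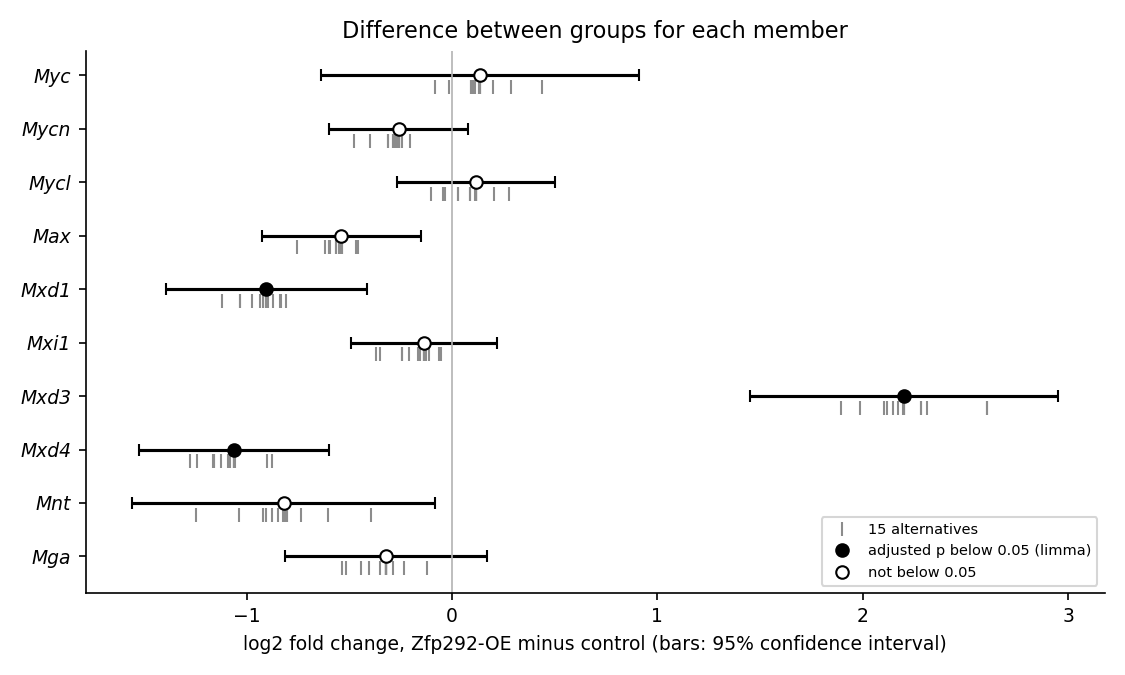
Log2 fold change of each member, Zfp292-OE minus control, with its 95% confidence interval from limma (filled points, adjusted p below 0.05) and, as grey ticks, the values under 15 alternatives. Mxd3 lies at 2.20, Mxd4 at −1.06 and Mxd1 at −0.91, with every tick on the same side of 0, and the ticks of Myc and Mycl fall on both sides.

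Mnt (Entrez 17428, chromosome 11, 74830806 to 74845725), an antagonist present in cycling and resting cells alike, had 651, 842 and 716 in the libraries labelled Zfp292-OE, against 962 and 1740 in control. The groups did not overlap, but the controls lay far apart. The log2 fold change of −0.82 (SE 0.33) did not pass (limma adjusted p = 0.12), and was −1.25 without control library 1 and −0.39 without control library 2. Mga (Entrez 29808, chromosome 2, 119872503 to 119970129), a large protein that carries a T-box domain besides its Max-binding region, had 8084, 4708 and 6205 in the libraries labelled Zfp292-OE, against 7281 and 8183 in control. Library 1 labelled Zfp292-OE lay between the controls, and the groups overlapped there (log2 fold change −0.32, SE 0.22, limma adjusted p = 0.34). The pseudogene Gm13998 overlaps Mga in position.

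Levels of different genes were compared as normalised read count per kilobase of exon, using the summed length of annotated exons in GENCODE M21 (GRCm38). Exons of all annotated transcripts were merged, for example 8483 bases for Mxd4 and 2369 for Mxd3. Such a length can exceed that of the transcripts present in these cells. The order of genes and the sums, shares and ratios by this measure depend on it. In control the order of mean levels was Mycn, Mycl, Mxi1, Max, Mxd3, Mxd4, Mga, Mxd1, Mnt and Myc, from 2506 ± 45.0 per kb for Mycn to 179 ± 26.6 for Myc (SD, n = 2). Of these neighbours the ranges overlapped for Mycl and Mxi1, for Mxd3 and Mxd4, and for Mga and Mxd1. In the libraries labelled Zfp292-OE, Mxd3 stood first at 5784 ± 2589 per kb (SD, n = 3), followed by Mycl, Mycn, Mxi1, Max, Mxd4, Mga, Mxd1, Myc and Mnt. Neighbours whose ranges overlapped there were Mycl and Mycn, Mycn and Mxi1, Mxd4 and Mga, and Myc and Mnt.

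The summed level of the Myc paralogues per kb was 4245, 4347 and 4940 in the libraries labelled Zfp292-OE, against 4496 and 4974 in control, ranges that overlap. Myc contributed 4.20, 4.66 and 4.19% of it in the libraries labelled Zfp292-OE, against 4.40 and 3.22% in control, and Mycn and Mycl made up nearly all the rest. The summed level of the Mxd family per kb was 8331, 10706 and 5997 in the libraries labelled Zfp292-OE, against 4654 and 4612 in control. Within this sum, Mxd3 made up 73.4, 76.5 and 50.8% in the libraries labelled Zfp292-OE, against 26.5 and 23.7% in control. Mxi1 made up 19.4, 16.4 and 35.1% in the libraries labelled Zfp292-OE, against 45.1 and 41.1% in control, where it was the main antagonist. The Mxd sum over the Myc sum was 1.96, 2.46 and 1.21 in the libraries labelled Zfp292-OE, against 1.04 and 0.927 in control. With Mxd3 left out, the same ratio was 0.522, 0.578 and 0.598 in the libraries labelled Zfp292-OE, against 0.761 and 0.707 in control. These sums and ratios are descriptions of the libraries and were not tested.

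**Figure D3:**
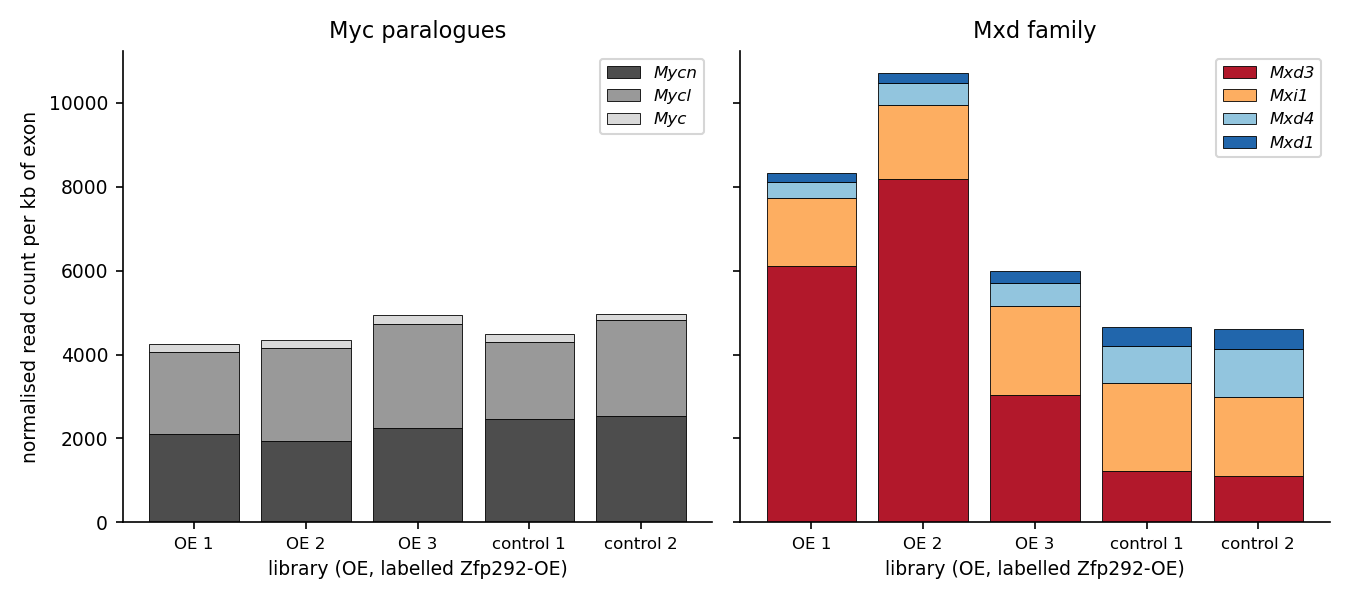
Stacked normalised read count per kilobase of exon in each library, for the Myc paralogues (left) and the Mxd family (right), on a shared axis. The Myc paralogue bars are of similar height in all 5 libraries, and Mxd3 fills 50.8 to 76.5% of the Mxd bar in the libraries labelled Zfp292-OE, against 23.7 and 26.5% in control.

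To show the sequence before the 3 genes that passed the test, the bases upstream of the gene's span in both RefSeq and GENCODE M21 are given here 5′ to 3′ on the strand of the gene, from the RefSeq promoter table of GRCm38.p6, in which 9 of the 10 members (all but Myc) had an entry. For Mxd4 the GENCODE span is the longer, so the 10 bases next to its RefSeq span are not shown. Capitals mark an E-box, CACGTG, the site of Myc-Max and Mxd-Max dimers.
Mxd3, chr13:55329901-55329981, minus strand: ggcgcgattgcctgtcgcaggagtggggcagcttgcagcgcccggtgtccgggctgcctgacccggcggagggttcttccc
Mxd4, chr5:34187721-34187960, minus strand: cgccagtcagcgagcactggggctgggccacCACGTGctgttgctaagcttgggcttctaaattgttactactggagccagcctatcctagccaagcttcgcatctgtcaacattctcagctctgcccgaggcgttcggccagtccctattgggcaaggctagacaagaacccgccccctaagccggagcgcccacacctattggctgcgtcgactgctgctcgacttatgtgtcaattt
Mxd1, chr6:86669235-86669409, minus strand: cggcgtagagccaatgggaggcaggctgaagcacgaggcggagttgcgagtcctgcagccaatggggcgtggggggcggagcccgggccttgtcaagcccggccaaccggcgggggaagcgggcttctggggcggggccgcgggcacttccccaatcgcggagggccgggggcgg

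The first 250 bases of each window in that table, those before the start it lists, were searched on both strands for CACGTG, for the E2F-type sequences GGCGGGAA and TTTGGCGC, and for TTTGAA, the core of an element of mitotic promoters. These 4 motifs were chosen after the values were seen, and the matches printed share no base with one another. Among the members' windows CACGTG stood in those of Mxd4 and Mnt, and in 6.02% of all 32851 windows. GGCGGGAA stood in that of Mxd3, at a place inside the RefSeq span given above, and in 1.86% of all windows. TTTGGCGC stood in that of Mycn, at 2 places, and in 0.417% of all windows. TTTGAA stood only in the Mycn window among the members, as its reverse complement and inside the GENCODE span, and in 16.0% of all windows. Stretches of 30 bases around the first 3 motifs are shown, with the motif in capitals, because their genes fall on different sides of the test.
Mxd3, chr13:55329850-55329879, minus strand: agttcagcctgGGCGGGAAgaggcgggctg
Mxd4, chr5:34187912-34187941, minus strand: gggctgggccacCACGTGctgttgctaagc
Mnt, chr11:74830789-74830818, plus strand: ccccacccaagcCACGTGtgcgcgcgcggt
Mycn, chr12:12941994-12942023, minus strand: ggctTTTGGCGCgaaaggcTTTGGCGCctc
A match describes the letters only. Mxd3, with GGCGGGAA, rose, and Mycn, with TTTGGCGC at 2 places, had a log2 fold change of −0.26 that did not pass. Of the members with CACGTG, Mxd4 fell and Mnt had −0.82, which did not pass.

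Partners and known targets of the network were read from lists of related genes, beside a median log2 fold change of −0.058 over all genes tested, of which 10% were called higher and 7.38% lower. The list medians below are log2 fold changes. In the MLX arm, a parallel set of Max-like dimers that respond to glucose, 0 of 2 tested genes passed in limma, edgeR or DESeq2, and 0 had an unadjusted p below 0.05. Mlx, its shared partner, had 5949, 5654 and 5472 in the libraries labelled Zfp292-OE, against 8030 and 6210 in control (log2 fold change −0.31, limma adjusted p = 0.24), and Mlxip, a glucose-responsive partner of Mlx, had −0.27 (0.43). Mlxipl was too low to test.

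Of 16 coactivators and stability factors of Myc, 5 rose, 0 fell and 11 missed the threshold, and the list had a median of 0.13. The list mixes factors that aid or stabilise Myc with ubiquitin ligases that act on it. Its count and median therefore do not measure Myc activity. Ruvbl2, an ATPase of chromatin remodelling complexes that Myc recruits, had 34858, 36935 and 32421 in the libraries labelled Zfp292-OE, against 17696 and 16036 in control (limma log2 fold change 1.04, adjusted p = 0.0012). Aurka, the mitotic kinase that stabilises the Mycn protein, rose by 1.99 on the log2 scale, the mitotic kinase Plk1 by 1.95, and Skp2, a ubiquitin ligase subunit that acts on Myc and on the cell cycle inhibitor p27, by 1.57. The scaffold Trrap had −0.47, which did not pass (limma adjusted p = 0.075). With equal totals the median of this list was −0.088, with 5 higher and 2 lower. It was 0.0044 after quantile normalization, with the same counts. The median was 0.054 and 0.20 without control library 1 and 2, and 0.074 without library 2 labelled Zfp292-OE.

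Of 9 corepressors of Mxd and Mnt, 4 rose, 0 fell and 5 did not pass, with a median of 0.54. Rbbp7, a histone-binding subunit of several deacetylase complexes, had 87693, 93188 and 77625 in the libraries labelled Zfp292-OE, against 43993 and 33574 in control (limma log2 fold change 1.16, adjusted p = 0.0015). The deacetylases Hdac2 and Hdac1 rose by 0.97 and 0.70, and the SIN3 subunit Sap30 by 0.71. The scaffolds Sin3a and Sin3b had values of 0.14 and 0.25 and did not pass. With equal totals or quantile normalization Hdac1 and Sap30 lost their calls, which left 2 of 9, and the list's median was 0.32 and 0.21. Without library 2 labelled Zfp292-OE 2 of 9 passed, at a median of 0.54.

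In the Mga complex, a Polycomb complex that silences germ line genes, 5 of 11 genes rose, 0 fell and 6 missed the threshold, with a median of 0.37. Tfdp2, a dimer partner of E2F proteins, had 20214, 19816 and 20186 in the libraries labelled Zfp292-OE, against 11473 and 11937 in control (limma log2 fold change 0.78, adjusted p = 0.0043). The repressor E2f6 rose by 1.01, Tfdp1 by 0.89 and the heterochromatin protein Cbx3 by 1.05. Pcgf6 and L3mbtl2, which define the complex, had 0.0092 and 0.15 and did not pass, and Mga itself did not pass either. With equal totals 4 rose and the median was 0.15, and DESeq2 called 6 higher and 1 lower, the ubiquitin ligase Ring1.

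Known targets of Myc were divided by function. Of 18 genes listed under ribosome biogenesis, 9 rose, 0 fell and 9 missed the threshold, all 18 had values above 0, and the median was 0.68. The list also holds the translation regulators Eif4e and Eif4ebp1, which were both among the genes that rose. Dkc1, the pseudouridine synthase dyskerin, had 16099, 15369 and 14354 in the libraries labelled Zfp292-OE, against 6423 and 6153 in control (limma log2 fold change 1.28, adjusted p = 0.00059). The translation inhibitor Eif4ebp1 rose by 1.04, the nucleolar core protein Nop58 by 0.89 and the nucleolar chaperone Npm1 by 0.85. Equal totals moved the median of all genes by −0.22. Under that scaling 8 of the 18 rose, 17 lay above 0 and the list's median was 0.47.

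Of 14 metabolic targets, 4 rose, 0 fell and 10 did not pass, with a median of 0.29. Shmt1, a folate enzyme that feeds thymidylate synthesis, had 5636, 6288 and 4644 in the libraries labelled Zfp292-OE, against 911 and 1040 in control (limma log2 fold change 2.49, adjusted p = 0.00028). Odc1, the polyamine enzyme and a classical E-box target, rose by 1.05, the nucleotide enzyme Prps2 by 1.65 and Impdh2, of guanine nucleotide synthesis, by 0.72. The pyrimidine enzyme Cad, the lactate dehydrogenase Ldha and the transferrin receptor Tfrc had values of 0.16, 0.20 and 0.055 and did not pass. With equal totals 3 rose, 7 of the 14 lay above 0, against 11 as deposited, and the median was 0.073. After quantile normalization 4 rose and the median was 0.093.

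Of 10 cell cycle targets, 6 rose, 1 fell and 3 were not past the threshold, with a median of 0.80. The list holds targets that Myc is known to activate and others, such as Cdkn1a, that it is known to repress. Its count and median therefore mix both kinds and do not measure Myc activity. Cks2, a subunit of cyclin-dependent kinases, rose by 2.33 on the log2 scale, the helicase subunit Mcm7 by 0.98 and the kinase Cdk4 by 0.81. Cdkn1a, an inhibitor that Myc is known to repress, rose by 1.14. Ccnd2, a cyclin that Myc is known to activate and Mxd1 to repress, fell. It had 160, 389 and 231 in the libraries labelled Zfp292-OE, against 574 and 933 in control (limma log2 fold change −1.59, adjusted p = 0.049, range over 15 alternatives 0.016 to 0.35). The counts in all these lists were 0 without control library 1 and 0 without control library 2.

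**Figure D4:**
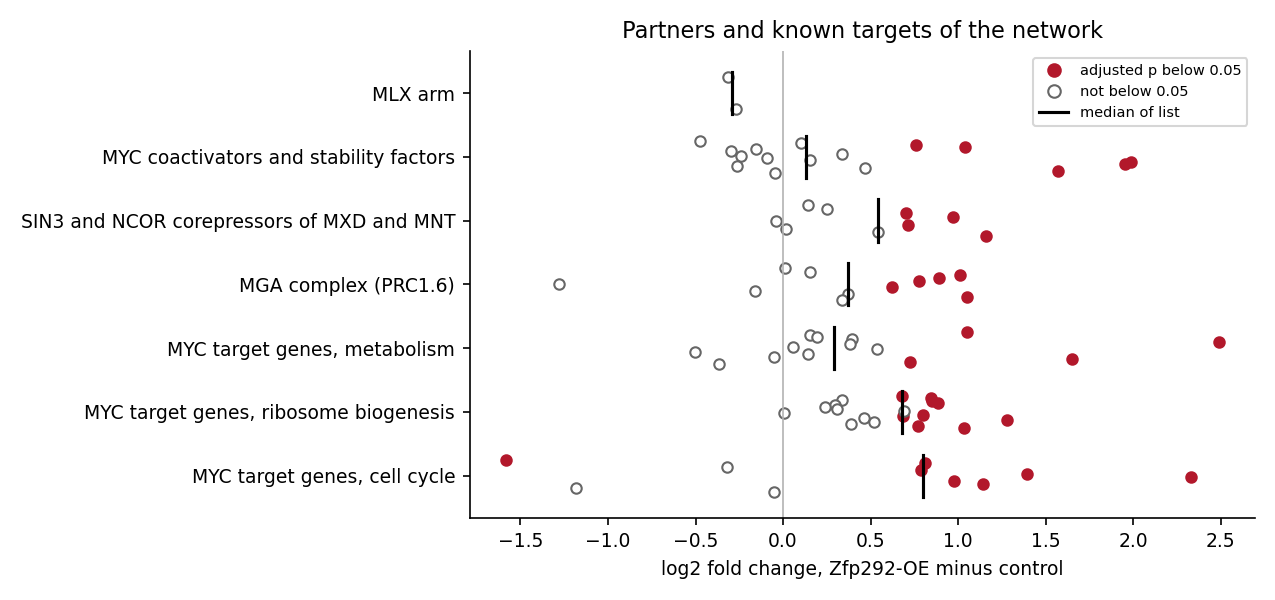
Log2 fold change, Zfp292-OE minus control, of each tested gene in 7 lists of partners and known targets (red, limma adjusted p below 0.05; open, not below), with the median of each list as a black line. All 18 genes of the ribosome biogenesis list lie above 0 (17 with equal totals), and Ccnd2, at −1.59, is the red point below 0.

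Markers of cycling cells, rods and bipolar cells also differed between the groups, and fewer markers of the other cell types did. For the 8 markers of cycling cells the summed normalised count was 147065 to 284909 in the libraries labelled Zfp292-OE, against 42539 and 47036 in control, and none was at 0 in any library. Relative to the control mean libraries 1, 2 and 3 labelled Zfp292-OE had a mean log2 value of 2.30, 2.56 and 1.69 over these markers, and Mxd3 lay at 2.40, 2.82 and 1.39. Library 3 was the lowest of its group in both. The proliferation antigen gene Mki67 rose by 2.21 on the log2 scale, the cyclin Ccnb1 by 2.83, the ribonucleotide reductase subunit Rrm2 by 2.56 and the helicase subunit Mcm5 by 1.82.

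Rod markers summed to 131844 to 149962 in the libraries labelled Zfp292-OE, against 525114 and 644702 in control, with none at 0. The phosphodiesterase subunit Pde6b fell by 2.36 on the log2 scale, the axoneme protein Rp1 by 2.06 and the arrestin Sag by 1.89. Bipolar markers summed to 29231 to 32745 in the libraries labelled Zfp292-OE, against 78633 and 93895 in control, and Vsx1, Grm6 and Bhlhe23 were each at 0 in at least 1 library. The glutamate receptor Grm6 had 35.4, 0 and 3.14 in the libraries labelled Zfp292-OE, against 2974 and 3960 in control. Isl1 fell by 2.75 on the log2 scale. Mxd4 and Mxd1 were lower in the same libraries, and so was Max by its values. Relative to the control mean, Mxd4 lay at −1.38, −0.94 and −0.87 in libraries 1, 2 and 3 labelled Zfp292-OE. Mxd1 lay at −1.10, −0.97 and −0.65, and Max at −0.68, −0.51 and −0.42. The rod marker mean was −2.11, −2.07 and −2.27, and the bipolar mean −4.60, −5.42 and −4.55. Library 3 was the least lowered for all these members. The rod mean was lowest there, and the bipolar mean was lowest in library 2. The part of these markers in the values of the network was not tested.

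Of 8 Müller glia markers 1 rose, 4 fell and 3 did not pass. The lipid carrier Apoe (−1.29), the chaperone Clu (−1.49) and the retinoid carrier Rlbp1 (−0.86) fell, and the glutamine synthetase Glul (0.63) rose. Their sum was 320263 to 395380 in the libraries labelled Zfp292-OE, against 613269 and 768779 in control. Of 8 amacrine and horizontal markers 0 rose and 2 fell, Gad1 (−1.48) and Prox1 (−0.88). Of 8 ganglion cell markers and of 8 microglial markers 0 passed in limma, edgeR or DESeq2, and an unadjusted limma p below 0.05 was found for 0 and 1 of them. The ganglion markers Sncg (1.04) and Pou4f2 (3.33) and the microglial Csf1r (−4.44) and Aif1 (−1.70) had the smallest p, with adjusted p between 0.13 and 0.22. Of 7 tested markers of vessels 1 rose, the tight junction gene Cldn5 (3.35), and 2 fell, the pericyte genes Rgs5 and Kcnj8, both at 0 in at least 1 library labelled Zfp292-OE. Cdh5 and Tek, of endothelium, were also at 0 in at least 1 library, as were Tmem119 and Csf1r among the microglial markers and Pou4f2 among the ganglion markers. The part of these markers in the network's values was not tested either.

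**Figure D5:**
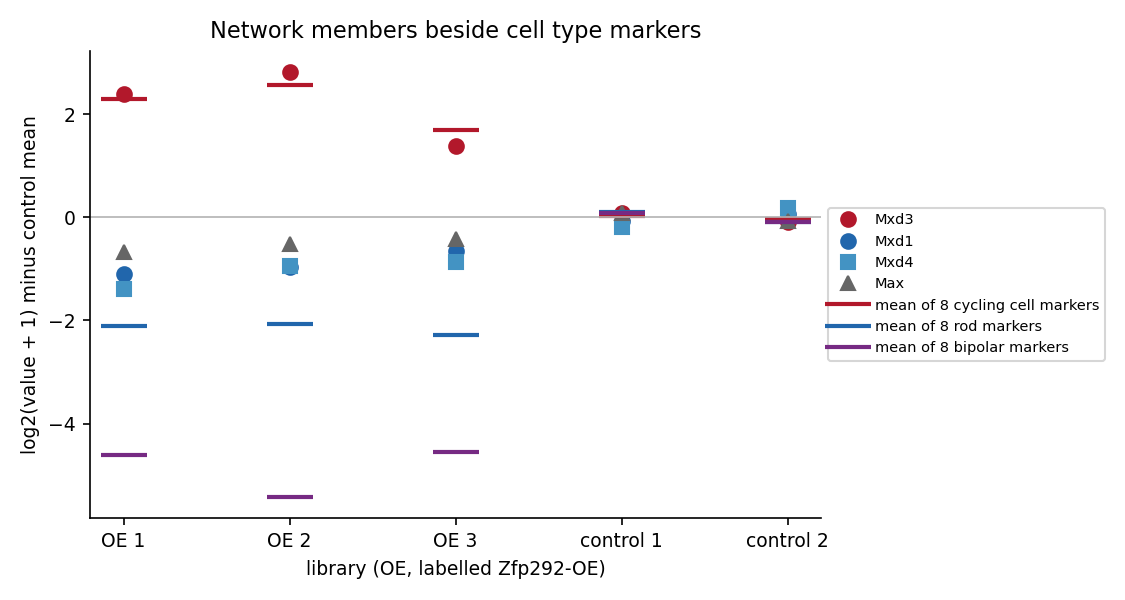
Log2(value + 1) in each library relative to the control mean, for Mxd3, Mxd1, Mxd4 and Max (points) and for the mean of 8 markers each of cycling cells, rods and bipolar cells (short lines). In libraries 1, 2 and 3 labelled Zfp292-OE, Mxd3 lies at 2.40, 2.82 and 1.39 beside the cycling mean at 2.30, 2.56 and 1.69.

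The genes whose values over the 5 libraries were nearest to those of each called member were found by Euclidean distance, each gene's log2(value + 1) taken relative to its own mean, among 14292 genes. For Mxd3 these were the histone chaperone Asf1b (distance 0.209), the spindle checkpoint kinase Bub1b (0.212) and the cytokinesis protein Anln (0.251). Asf1b had 26512, 33004 and 13560 in the libraries labelled Zfp292-OE, against 5256 and 4068 in control. For Mxd4 they were Egflam, the photoreceptor synapse protein pikachurin (0.0507), Cplx2, a complexin of synaptic vesicle release (0.0991), and Nipal3 (0.115). For Mxd1 they were the zinc finger gene Zfp219 (0.0920), the F-box gene Fbxl18 (0.0974) and the vesicle priming gene Unc13b (0.101). Zfp219 and Fbxl18 did not pass themselves (limma adjusted p = 0.063 and 0.076). The difference between the groups, by which the members were called, enters this distance. A near gene therefore need not share a function with the member.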

How the data were processed

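For 5 mouse libraries the authors deposited a gene table of normalised signal, which the values show to be read counts scaled by 1 factor per library. Division by each library's smallest value above 0 gave whole reads, within 1e-06 of a read, for 100% of values. Libraries were made with a SMARTER mRNA kit, per the labels' protocols, and GRCm38 and mm10 are named as builds in the submitters' processing notes. The sources used here name no aligner, counter, strand setting or scaling method. There were 0 columns of other samples.

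On log2(value + 1), genes whose mean value reached 10 were compared in all 5 libraries, Zfp292-OE minus control, by limma 3.58.1 with a trend in R 4.3.3. The p-values were adjusted by Benjamini-Hochberg and read against 0.05, and fold changes are on this log2 scale, which understates those of low genes. edgeR 4.0.16 and DESeq2 1.42.0 on the recovered reads (edgeR called 2621 genes), pseudocounts of 0.5 and 10, filters, scalings, a fit blocked by replicate number and omission of each library were alternatives. Simulated data with few changed genes were used to check the size and sign of fold changes, and did not judge the rate of false calls.

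The members and lists were chosen with earlier results of these data known. Named genes were the members, Zfp292, up to 4 per list past the threshold with the smallest p (2 where none passed) and the 3 nearest genes of each called member; some marker genes are not reported here by name. Prelid1, Trrap, Ccnd2, Cad, Ldha, Tfrc, Sin3a, Sin3b, Pcgf6, L3mbtl2, Ring1, Rnf2, Eif4e, Bmyc and further markers at 0 were named after their values were seen. Coordinates are from RefSeq GRCm38.p6 and span the whole gene. Tables and plots used Python 3.11.15.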

Additional observations from a re-analysis of the deposited data

How the results depend on the processing

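The number of genes called stayed within 1.5 times of 2836 in every alternative that kept all libraries (2200 to 4167), and was 1 to 2352 when a library was left out: 1 without either control library and 1657 without library 1 labelled Zfp292-OE. The network count was 3 or 4 with all libraries (4 where Max passed) and 0 to 3 when a library was left out, 0 without either control, although 4 members had an unadjusted p below 0.05 in each of those fits. Of 150 alternative values of the members, 134 kept direction and side of the threshold, 8 lost a call, all in fits without a library, 3 gained one, all of Max, and 5 changed sign. The changes of sign were Myc with equal totals (−0.081) and without control library 2 (−0.017, in a range of −0.017 to 0.29 over fits without 1 library), and Mycl with equal totals (−0.10), with quantile normalization (−0.033) and without control library 1 (−0.044, in a range of −0.044 to 0.28). Zfp292 changed sign with equal totals (−0.17), quantile normalization (−0.21), the replicate block (−0.011), without control library 1 (−0.033, in a range of −0.033 to 0.12) and without library 3 labelled Zfp292-OE (−0.011). The cause was not tested. Equal totals moved the median of all genes by −0.22 and gave 908 higher and 1977 lower genes, 31.5% of calls higher, against 1632 and 1204, 57.5%. Same-numbered libraries did not deviate together (correlations of deviations −0.04 and −0.03 for numbers 1 and 2). The deviations of the 2 controls are mirror images, so these correlations share the same control values and say little about pairing. The replicate block called 2498 genes and the same count of 3 members. Library 3 labelled Zfp292-OE has no control of its number, so that block gave the fold changes of the fit without library 3. It is therefore not a separate fit of all libraries, although it is counted with those above. Of 780 alternative values of other named genes, 106 lost a call, 94 of them in fits without a library. The 2 control libraries limit every result here.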

Other observations

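Bmyc, a rodent gene related to Myc that encodes a protein without the DNA-binding region and is not among the listed members, had 14513, 12653 and 12499 normalised reads in the libraries labelled Zfp292-OE, against 13773 and 14784 in control. The groups overlapped (log2 fold change −0.11, SE 0.14, limma adjusted p = 0.62). It was looked at after the values of the other paralogues were known. Ring1, a ubiquitin ligase of Polycomb complexes and also chosen after its values were seen, had 183, 144 and 219 in the libraries labelled Zfp292-OE, against 468 and 408 in control. Its log2 fold change of −1.28 did not pass (limma adjusted p = 0.083, range over 15 alternatives 0.035 to 0.25), while its paralogue Rnf2 rose by 0.62 (limma adjusted p = 0.047, range over 15 alternatives 0.021 to 0.24).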
